A study of Mus musculus with 12 samples.

Results

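The proteasome genes were defined by symbol, as every gene whose platform symbol begins with Psm, followed by a letter from a to g and a number. By this rule 47 of the 18193 genes with a single-gene probe set were members, each represented by its brightest such probe set. They were measured in neural tubes taken by micro-dissection from mouse embryos of the ICR (CD-1) stock, at gestation day (GD) 8.5, GD9.0 and GD9.5, the interval in which the neural folds close. No stage carried a mutation or treatment, and the labels do not say whether an array holds 1 embryo or several. Each stage had 4 biological replicates on Affymetrix mouse genome arrays, which report a log2 hybridisation level per probe set. Levels of single genes are not compared between probe sets here. The columns of GD8.5 replicates 1 and 2 were on a linear scale, so the results rest on 2 arrays at GD8.5 and on 4 at each later stage.

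The proteasome is the enzyme complex that degrades most ubiquitin-tagged proteins in the cytosol and nucleus. Its core particle stacks rings of alpha subunits (Psma genes), which gate the chamber, and of beta subunits (Psmb genes), of which Psmb5, Psmb6 and Psmb7 encode the cutting sites. The regulatory particle caps the core: its base holds the Psmc ATPases, which unfold substrates, and its lid holds Psmd14, which removes ubiquitin. Dedicated chaperones (the Psmg genes, Psmd5, Psmd9 and Psmd10) help assemble both particles, and Psme gene products can open the core in place of the regulatory particle. Dividing cells depend on the complex for the timed removal of cyclins and other cell cycle regulators.

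Neural tube markers were detected in the dissected tissue. All 12 neural tube markers (Sox1, Sox2, Pax3, Pax6 and others) lay above background at every stage, and their summed log2 level was 71.0 to 71.7 at GD8.5, 79.0 to 79.7 at GD9.0 and then 87.5 to 88.4 at GD9.5. Background was set at 1.42, the 95th percentile of 39 olfactory receptor genes. Other tissues also moved with stage: the 10 cardiac muscle markers summed to 61.7 to 62.4 at GD8.5, 33.0 to 34.2 at GD9.0 and then 14.4 to 16.0 at GD9.5, when 4 of them were at or below background. The 10 endoderm and yolk sac markers summed to 69.2 to 69.6, 35.9 to 37.2 and 15.0 to 15.7 at the same stages, and the 7 measured erythroid markers to 37.9 to 39.2, 46.7 to 47.4 and 51.7 to 53.0. All 10 cardiac muscle and all 10 endoderm and yolk sac markers lay above background at GD8.5 and GD9.0. Lying above background therefore does not set the neural tube apart at these stages. The part of this tissue composition in the proteasome values was not tested. In bulk tissue, fewer cells of a type and less RNA per cell cannot be told apart.

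Proteasome transcripts were close to level across the 3 stages. Of the 47 genes, 44 lay above background, and for 39 of these (88.6%) the highest and lowest stage means differed by under 0.3 log2 units, against 59.8% of all 13018 genes above background. The median range of stage means was 0.13 for the proteasome genes and 0.25 for all genes above background. The 95% confidence interval of the change lay inside 1.5-fold either way for 43 of 44 genes between GD9.0 and GD8.5 (84.9% of all genes above background), for 43 between GD9.5 and GD9.0 (86.5%) and for 42 between GD9.5 and GD8.5 (73.1%). The exceptions were Psmd13 in all 3 comparisons and Psmg1 in the last. Inside the narrower bound of 1.2-fold lay 32, 28 and 28 of the 44 genes, against 27.5%, 33% and 19.8% of all genes above background. The proteasome genes also had the smaller spread between arrays, with a median within-stage SD of 0.041 against 0.103, and its part in these shares was not tested.

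**Figure D1:**
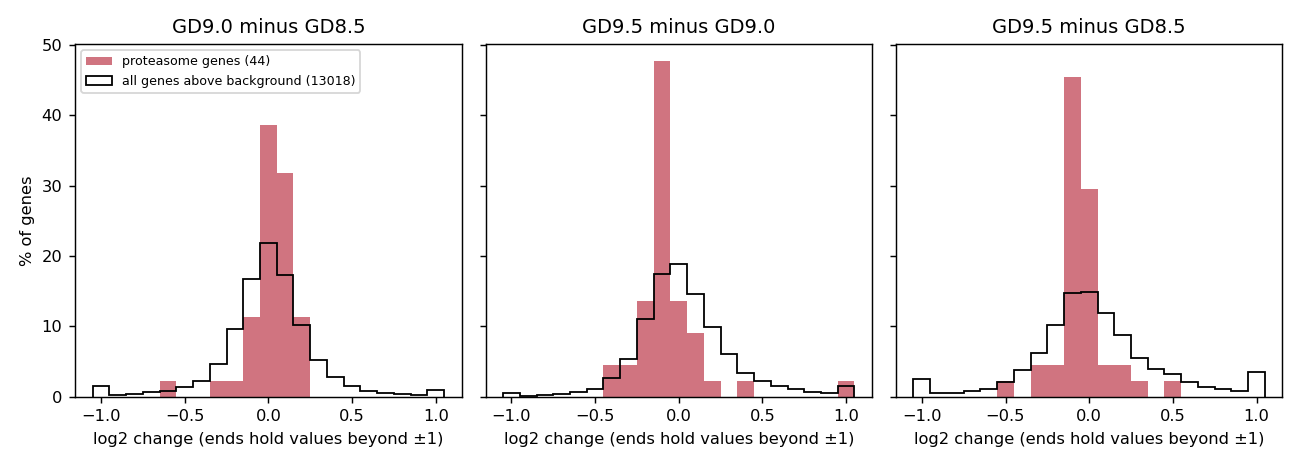
Histograms of the log2 change in each stage comparison, as a percentage of genes, for the 44 proteasome genes above background (red) and all 13018 genes above background (black line), with values beyond 1 in the end bins. The proteasome genes pile up near 0, with their median at 0.02 for GD9.0 minus GD8.5, -0.10 for GD9.5 minus GD9.0 and -0.07 for GD9.5 minus GD8.5.

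Between GD9.0 and GD8.5 few proteasome genes passed the test. At an adjusted p under 0.05 (limma, Benjamini-Hochberg over all genes), 1 of 47 was higher at GD9.0, against a background of 6.78% of all genes, and 2 were lower, against 6.74%. Together these 3 genes are 6.38% of the members, against 13.5% of all genes. The median change was 0.02, against -0.0019 over all genes. Without overlap between arrays of the stages, 13 genes (27.7%) lay above GD8.5, against 17.6% of all genes, and 7 (14.9%) below, against 16.9%. At an unadjusted p under 0.05 there were 7 (14.9%), against 25.2%. With an intensity trend and robust variance in the fit, 7 were called (14.9%), against 17.9% of all genes. In simulated data of 18193 genes, the test recovered 10% of true 1.2-fold changes in this comparison, so small changes can be missed. That share is not specific to the proteasome genes, and recovery at their smaller spread between arrays was not tested. With only 2 arrays at GD8.5, leaving out either of these left 1 call.

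Between GD9.5 and GD9.0 the set leaned downward. The change was below 0 in 40 of 47 genes (85.1%), against 51.8% of all genes, with a median of -0.10 against -0.0077. Among genes above background, it was below 0 in 37 of 44 members (84.1%), against 49.1%. The members were bright, with a median level of 8.58 to 8.63 in the GD9.5 arrays, against 4.35 to 4.41 for all genes above background. The highest value of an array was 12.62 to 12.66 at GD9.5 and 12.78 to 12.80 at GD9.0. The test called 3 genes higher at GD9.5, against 14.1% of all genes, and 11 lower (23.4% of the members), against 10.3%. All 4 GD9.5 arrays lay below all 4 GD9.0 arrays for 21 genes, against 11.9% of all genes, and above them for 4, against 15.1%. Centring each array on its median gave 3 genes higher and 27 lower, beside 1906 and 3177 over all genes. Without centring, all genes gave 2561 higher and 1868 lower. Quantile normalization of the 10 log2 arrays gave 3 proteasome genes higher and 11 lower, beside 2470 and 2059 over all genes. A fit of all 12 arrays, in which the added arrays are of GD8.5 alone, gave 3 and 4, beside 1259 and 1036 over all genes. Most of the changes were small: among the 11 lower genes they ran between -0.14 and -0.38. Array controls moved between the same stages: those for 18S ribosomal RNA averaged 10.28 at GD9.5 and 8.81 at GD9.0, and the actin 3′ minus 5′ difference was 0.93 and 0.56. The part of these controls, and of the members' high level, in the lean was not tested.

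Over the whole interval, GD9.5 against GD8.5, 3 genes were called in each direction. Psmd13, Psmg4 and Psmd11 were higher at GD9.5 (15.5% of all genes were) and Psmg1, Psmg3 and Psma7 lower (13.1% of all genes were). The 6 calls make up 12.8% of the members, against 28.6% of all genes. With an intensity trend and robust variance in the fit, 4 were higher and 11 lower (31.9% in all, against 32.2% of all genes), so neither the even split nor the low share held. The median change was -0.07, against -0.016. All GD9.5 arrays lay below both GD8.5 arrays for 24 genes, against 22.7% of all genes, and above both for 6, against 23.2%. This comparison shares arrays with the other comparisons and adds no independent evidence to them.

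The difference between the intervals, GD9.5 minus GD9.0 less GD9.0 minus GD8.5, was itself tested. It was positive for 2 genes, Psmd13 and Psmd3, against 6.97% of all genes, and negative for 6, against 4.67%. The 6 were Psmf1, Psmg3, Psmd10, Psmd5, Psmd4 and Psmd2. Together 8 of 47 genes (17%) passed, against 11.6% of all genes. The calls of Psmf1, Psmd10, Psmd5, Psmd4 and Psmd2 could be lost when a GD9.0 array was left out. Those of Psmd13, Psmd3 and Psmg3 were kept in every such case. A fit of all 12 arrays lost the calls of Psmg3, Psmd10, Psmd5, Psmd4 and Psmd2.

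**Figure D2:**
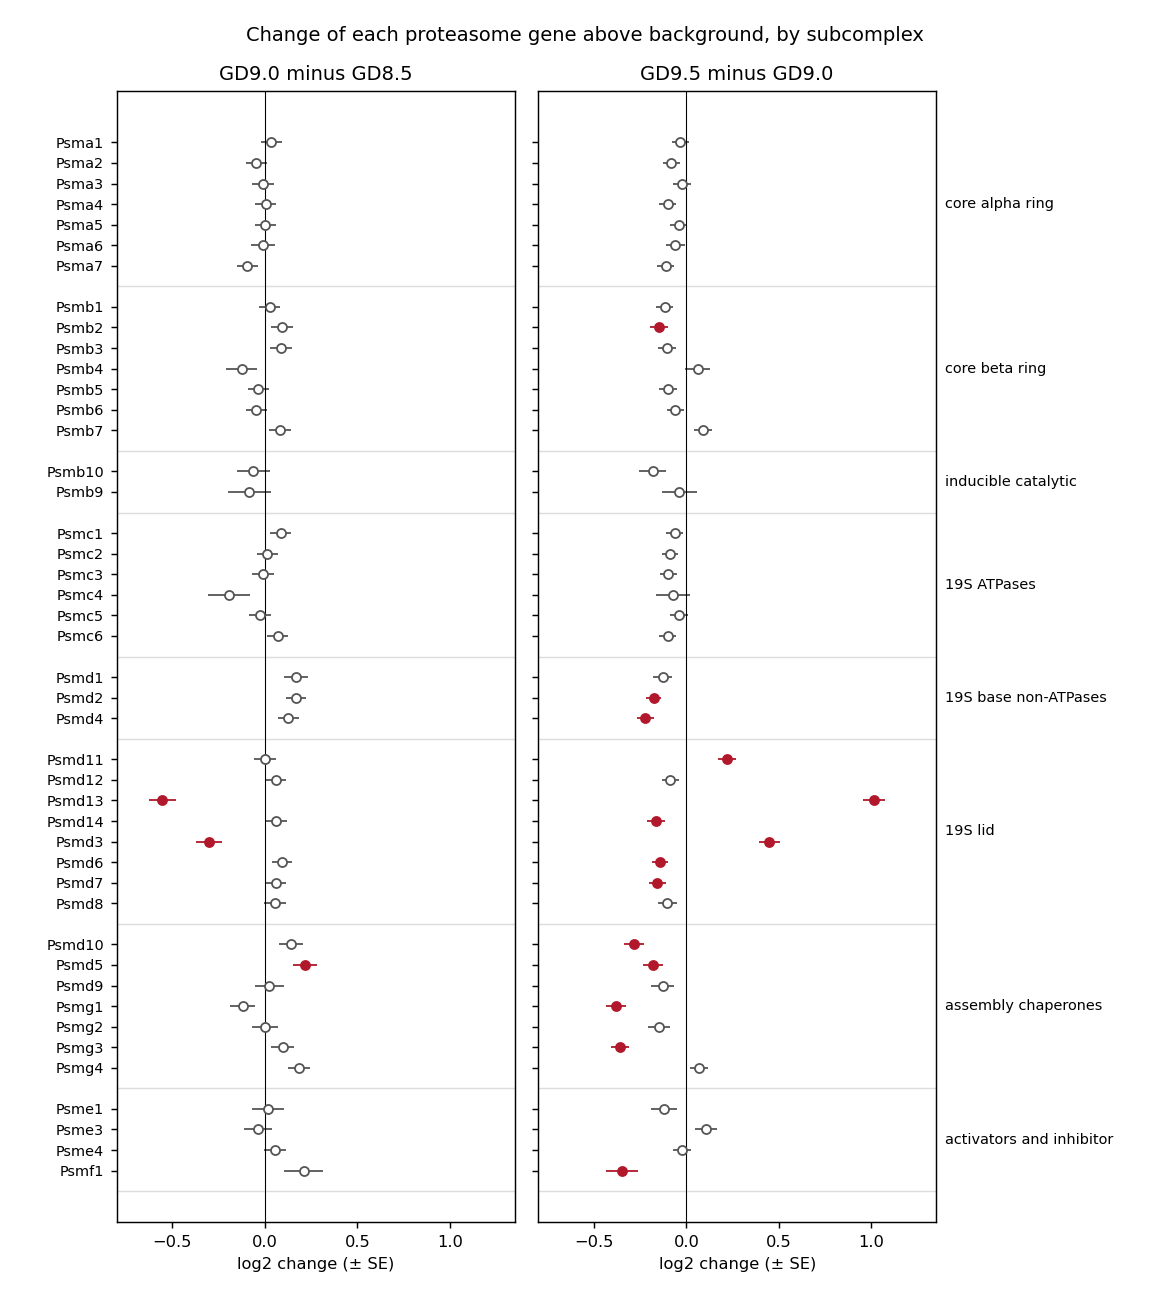
Log2 change with its standard error for each of the 44 proteasome genes above background, grouped by subcomplex, for GD9.0 minus GD8.5 (left) and GD9.5 minus GD9.0 (right). Filled red points passed the test, and Psmd13 stands furthest from 0 in both panels, at -0.55 and 1.01.

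Promoter sequence is shown for the genes called in at least 2 of the 3 stage comparisons, since they moved in more than 1 comparison. There were 6 such genes, and windows for 5 were found in the RefSeq promoter table (GRCm38.p6), which spans 250 bases before to 50 after the gene start. Windows are given on the gene's strand, 5′ to 3′, and capitals mark matches to the motifs named after them. They are Psmd13 at chr7:140882144-140882443 (plus strand), Psmd11 at chr11:80428365-80428664 (plus strand), Psmd5 at chr2:34870913-34871212 (minus strand), Psmg1 at chr16:95990911-95991210 (minus strand) and Psmg3 at chr5:139826845-139827144 (minus strand).
Psmd13: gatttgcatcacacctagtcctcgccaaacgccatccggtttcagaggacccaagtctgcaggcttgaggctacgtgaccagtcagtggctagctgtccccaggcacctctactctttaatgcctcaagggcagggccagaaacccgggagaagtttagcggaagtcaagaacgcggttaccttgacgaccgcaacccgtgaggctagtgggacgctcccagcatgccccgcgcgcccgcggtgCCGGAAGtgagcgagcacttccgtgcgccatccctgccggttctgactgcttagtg
Psmd11: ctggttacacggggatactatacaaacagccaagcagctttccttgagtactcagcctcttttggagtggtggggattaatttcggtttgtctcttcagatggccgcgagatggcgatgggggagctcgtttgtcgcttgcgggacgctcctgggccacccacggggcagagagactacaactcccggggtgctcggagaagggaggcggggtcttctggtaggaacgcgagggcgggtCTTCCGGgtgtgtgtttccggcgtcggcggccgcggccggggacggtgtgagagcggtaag
Psmd5: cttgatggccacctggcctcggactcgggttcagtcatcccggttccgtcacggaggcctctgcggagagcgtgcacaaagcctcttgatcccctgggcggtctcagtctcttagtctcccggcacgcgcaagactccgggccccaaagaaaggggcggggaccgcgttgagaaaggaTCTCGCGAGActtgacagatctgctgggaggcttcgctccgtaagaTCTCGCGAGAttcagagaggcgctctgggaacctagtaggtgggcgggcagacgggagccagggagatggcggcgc
Psmg1: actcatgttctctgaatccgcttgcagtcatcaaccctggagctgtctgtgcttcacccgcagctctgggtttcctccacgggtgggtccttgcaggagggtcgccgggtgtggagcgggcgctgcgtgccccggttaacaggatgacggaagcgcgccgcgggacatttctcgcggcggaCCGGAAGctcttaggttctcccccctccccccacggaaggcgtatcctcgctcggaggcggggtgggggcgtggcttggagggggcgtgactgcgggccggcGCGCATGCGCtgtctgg
Psmg3: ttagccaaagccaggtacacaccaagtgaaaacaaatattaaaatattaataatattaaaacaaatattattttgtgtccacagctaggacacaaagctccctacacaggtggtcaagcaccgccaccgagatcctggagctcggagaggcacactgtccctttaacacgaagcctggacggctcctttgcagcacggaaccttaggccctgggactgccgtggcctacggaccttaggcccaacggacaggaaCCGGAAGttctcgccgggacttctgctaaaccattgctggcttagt

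The capitals in Psmd13, Psmd11, Psmg1 and Psmg3 mark CCGGAAG or its reverse complement CTTCCGG, the core that ETS family factors bind. It lay 6 bases before the gene start in Psmd13, 11 before it in Psmd11, 69 before it in Psmg1 and 5 after it in Psmg3. On both strands this motif occurred in 14 of 39 proteasome genes with a window (35.9%) and in 8.86% of all 32851 windows. For this and the other motifs, a member counted once if any of its windows matched, while the background is a share of windows. The units of the shares therefore differ. The second run of capitals in Psmg1 is the NRF1 palindrome, 34 bases after the start, which occurred in 2 of the 39 (Psmg1 and Psma2) and in 0.971% of all windows. In Psmd5 the capitals mark a palindrome built on CGCGAGA, at 72 and at 26 bases before the start. No other member window held it, 0.466% of all windows did, and this motif was searched only after the sequences had been read.

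Other motifs were near their background. CCAAT (reverse complement ATTGG), bound by NF-Y, occurred in 14 of 39 (35.9%), against 37.4% of all windows. TGACNNNGC (reverse complement GCNNNGTCA), the antioxidant response core that Nfe2l1 binds with small Maf proteins, occurred in 6 of 39 (15.4%), against 12.4%: Psmb5, Psmb6, Psmc6, Psmd12, Psmd9 and Psme4. By their brightest probe sets, none of these 6 passed the test in any stage comparison. Of all genes, 13.5% passed for GD9.0 minus GD8.5, 24.3% for GD9.5 minus GD9.0 and 28.6% for GD9.5 minus GD8.5. Of the proteasome genes, 6.38%, 29.8% and 12.8% did, so 6 genes can show little here. A further Psme4 probe set was called lower for GD9.5 minus GD9.0 in a fit of all probe sets (limma adjusted p = 0.0434). A match describes the letters of a window and does not show that a factor binds there.

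In the core particle, the alpha ring changed little. No alpha subunit passed the test between GD9.0 and GD8.5 or between GD9.5 and GD9.0, where the 8 changes were all below 0, with a median of -0.05. The 7 above background changed by between -0.11 (Psma7) and -0.02 (Psma3). Psma7, a member of that ring, measured 9.62 and 9.54 at GD8.5, 9.52, 9.51, 9.43 and 9.50 at GD9.0 and 9.37, 9.42, 9.34 and 9.39 at GD9.5. All GD9.5 arrays lay below all arrays of the earlier stages. Its change between GD9.5 and GD8.5 was -0.21 ± 0.06 (SE; limma adjusted p = 0.02), and its second probe set was called lower as well. Without GD8.5 replicate 3 the change was -0.17 and the call was lost (adjusted p = 0.17). Psma8, the alpha subunit of spermatocytes, averaged 1.31 at GD8.5, 1.33 at GD9.0 and then 1.29 at GD9.5, below the background level.

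Among the 7 constitutive beta subunits, 1 passed the test between GD9.5 and GD9.0 and none in the other stage comparisons. Psmb2, a beta subunit without a cutting site, fell by 0.15 on the log2 scale (SE 0.05; limma adjusted p = 0.0455). Its arrays read 8.46, 8.44, 8.41 and 8.50 at GD9.5 against 8.65, 8.64, 8.58 and 8.53 at GD9.0. The stages did not overlap, but the call was lost without any 1 of 9 of the 10 arrays.

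The catalytic subunits stayed near level. Psmb5, which carries the chymotrypsin-like site, measured 8.85 and 8.84 at GD8.5, 8.80, 8.75, 8.88 and 8.81 at GD9.0 and 8.69, 8.71, 8.74 and 8.70 at GD9.5. Psmb6, with the caspase-like site, measured 9.04 and 9.10, then 9.02, 8.98, 9.08 and 9.02, and then 8.93, 8.95, 9.00 and 8.96 at these stages. For both genes GD9.5 was lowest, with changes against GD9.0 of -0.10 ± 0.05 and -0.06 ± 0.05 that did not pass. Psmb7, with the trypsin-like site, measured 6.49 and 6.44 at GD8.5, 6.60, 6.54, 6.58 and 6.46 at GD9.0 and 6.63, 6.67, 6.62 and 6.63 at GD9.5. Here GD9.5 was highest, with a change of 0.09 ± 0.05 against GD9.0 that did not pass.

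The inducible counterparts, which replace the catalytic subunits in the immunoproteasome of immune and interferon-treated cells, were dim or below background. Psmb8 averaged 1.15 at GD8.5, 1.29 at GD9.0 and then 1.07 at GD9.5, below background, and its part in the pair with Psmb5 was therefore not tested. Psmb9 averaged 1.64, 1.56 and 1.52, just above it. Psmb11, the catalytic subunit of thymic epithelium, averaged 1.26, 1.12 and 1.10, also below background. Psmb10 was the 1 clearly measured gene of this group, at 3.92 and 4.13 at GD8.5, 3.99, 3.87, 4.06 and 3.91 at GD9.0 and 3.79, 3.74, 3.67 and 3.90 at GD9.5. The GD9.5 and GD9.0 arrays overlapped, and its change of -0.18 ± 0.07 did not pass (limma adjusted p = 0.0946).

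Within an array, Psmb10 minus Psmb7 was -2.86 ± 0.10 at GD9.5 and -2.59 ± 0.07 at GD9.0 (log2 difference, SD, n = 4 each), with GD8.5 at -2.57 and -2.31. The difference between stages was -0.27, lower in all 4 GD9.5 arrays than in any GD9.0 array (two-sided exact permutation p = 0.0286, the smallest this design allows). Adjusted over the 2 pairs tested it was 0.0571, a value that 1 pair alone could not go below in this design, so the threshold was out of reach. Psmb9 minus Psmb6 was -7.44 ± 0.12 at GD9.5 and -7.46 ± 0.16 at GD9.0, a difference of 0.02 (exact p = 0.8). Psmb9 lay near background, at 1.31 in 1 GD9.5 array and 1.33 in 1 GD9.0 array, so this pair can show little. These values show whether 2 probe sets change unequally and not the amounts of the subunits. Of 10 macrophage and leukocyte markers, whose cells can carry inducible subunits, 4 were at or below background at GD8.5 and 5 at each later stage. Between GD9.5 and GD9.0, 4 of the 10 were called higher (14.1% of all genes were) and 1 lower, with Coro1a up by 1.14 ± 0.16. Their summed log2 level was 16.2 to 17.4 at GD9.5 and 14.7 to 15.4 at GD9.0, and their part in the Psmb10 values was not tested.

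In the base of the regulatory particle, no Psmc ATPase passed the test in any stage comparison by its brightest probe set. All 6 had a change below 0 between GD9.5 and GD9.0, with a median of -0.08 and a range of -0.10 (Psmc6) to -0.04 (Psmc5). For Psmc2 and Psmc4 the probe sets differed. The second Psmc2 probe set changed by -0.19 ± 0.05 in that comparison and passed in a fit of all probe sets (limma adjusted p = 0.0293), against -0.09 ± 0.05 for the brightest. For Psmc4, the brightest changed by -0.07 ± 0.09, and the second by -0.37 ± 0.05, which passed in the same fit (limma adjusted p = 0.0006).

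The 3 non-ATPase members of the base, Psmd1 and Psmd2, which are its large scaffolds, and Psmd4, a ubiquitin receptor, were highest at GD9.0. Adrm1, a base subunit outside the symbol rule, was not measured. Psmd4 measured 8.77 and 8.80 at GD8.5, 8.92, 8.90, 8.95 and 8.88 at GD9.0 and 8.65, 8.73, 8.73 and 8.65 at GD9.5. All GD9.0 arrays lay above those of both other stages. It fell by 0.22 between GD9.5 and GD9.0 (SE 0.05; limma adjusted p = 0.00484), and a second probe set by 0.32. Psmd2 fell by 0.18 (SE 0.04; limma adjusted p = 0.0108), and Psmd1, with a change of -0.13 ± 0.05, did not pass. In a fit of all 12 arrays neither call remained, although the changes stayed near -0.21 for Psmd4 and -0.16 for Psmd2.

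**Figure D3:**
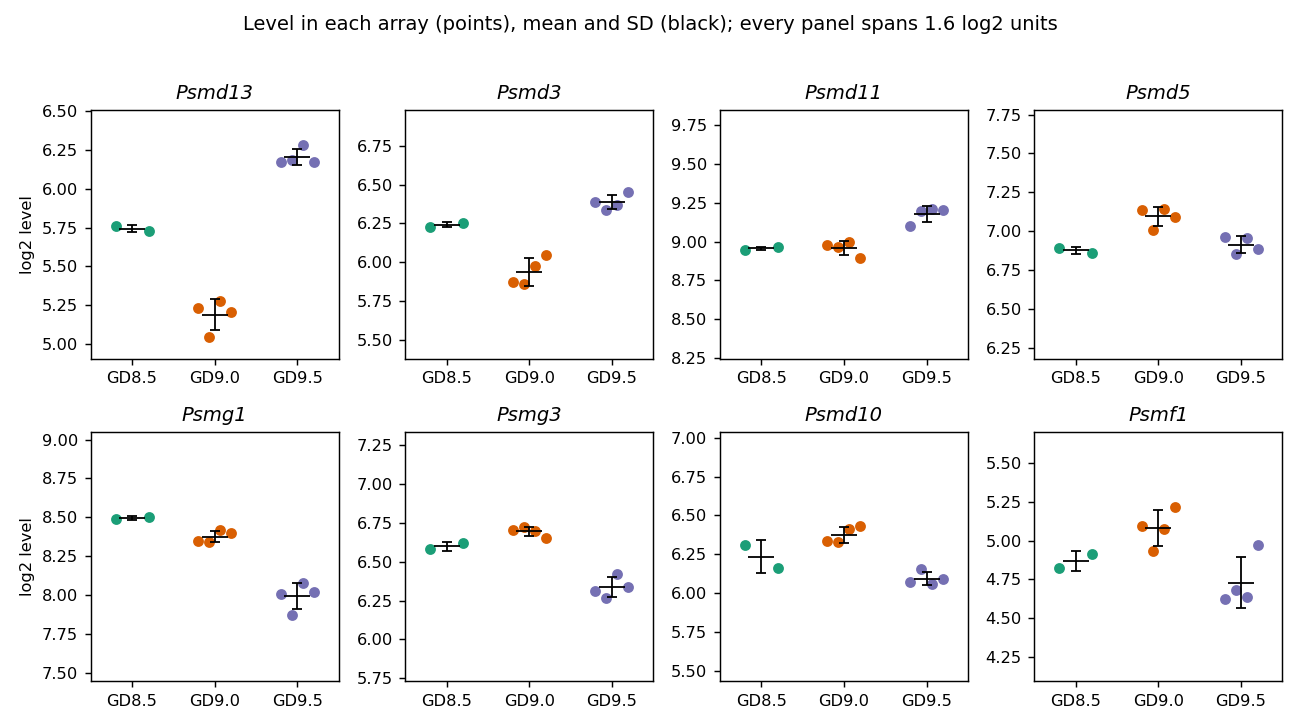
Log2 level of 8 proteasome genes in each array (points) with the stage mean and SD (black), for 2 arrays at GD8.5 and 4 at each later stage; each panel spans the same 1.6 log2 units. Psmd13 and Psmd3 are lowest at GD9.0, Psmd5 is highest there, and Psmg1 and Psmg3 are lowest at GD9.5.

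The lid gene Psmd13 had the largest change of the set in both intervals. Psmd13, a scaffold subunit of the lid, measured 5.76 and 5.73 at GD8.5, 5.23, 5.04, 5.28 and 5.21 at GD9.0 and 6.17, 6.19, 6.28 and 6.17 at GD9.5. The 3 stages did not overlap: GD9.0 was lowest and GD9.5 highest. It was 2.02-fold higher at GD9.5, relative to GD9.0 (log2 change 1.01 ± 0.06; limma adjusted p = 6.2e-07), and at GD9.0 it had fallen by 0.55 against GD8.5 (SE 0.07; adjusted p = 0.00039). Over the whole interval it rose by 0.46 ± 0.07 (adjusted p = 0.00063), and the difference between intervals was 1.57 ± 0.11 (adjusted p = 7.7e-06).

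This result rests on 2 of the 4 Psmd13 probe sets. The second, at a mean level of 4.95, changed by -0.42 between GD9.0 and GD8.5 and by 0.85 between GD9.5 and GD9.0, and passed in both. The other 2, at 2.80 and 1.49, changed by 0.02 and 0.06 between GD9.5 and GD9.0 and were not called. Both called probe sets are of kinds that can bind several transcripts. Without such probe sets the gene was read by the dim set at 2.80, and its change was 0.02 (limma adjusted p = 0.946). That alternative therefore changes the level of the probe set as well as its kind.

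Psmd3, another lid scaffold with a single probe set, had the same order of stages. It measured 6.23 and 6.25 at GD8.5, 5.87, 5.86, 5.98 and 6.05 at GD9.0 and 6.39, 6.34, 6.37 and 6.45 at GD9.5. No arrays overlapped between stages. It rose by 0.45 ± 0.06 between GD9.5 and GD9.0 (limma adjusted p = 0.00016), which is 1.37-fold, and fell by 0.30 between GD9.0 and GD8.5 (SE 0.07; adjusted p = 0.013). The fall was not called without either GD8.5 array.

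Psmd11, the remaining lid gene that rose, encodes a subunit that joins the lid to the alpha ring of the core. It measured 8.95 and 8.96 at GD8.5, 8.98, 8.96, 9.00 and 8.90 at GD9.0 and 9.10, 9.19, 9.21 and 9.20 at GD9.5. The earlier stages overlapped and GD9.5 lay above both, by 0.22 ± 0.05 against GD9.0 (limma adjusted p = 0.0067). Of its 8 probe sets, only the brightest passed in that comparison, and the mean of the 8 changed by 0.06 (adjusted p = 0.428). That mean includes dim probe sets, with levels down to 0.96. The sets at 7.57, 7.52 and 6.44 changed by 0.06, 0.17 and 0.03. The set at 7.52 was called higher for GD9.5 minus GD8.5, by 0.22, in a fit of all probe sets (limma adjusted p = 0.0335).

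The other 5 lid genes had changes below 0 in that comparison. Psmd14, the deubiquitinase, fell by 0.16 between GD9.5 and GD9.0 (SE 0.05), Psmd7, its partner, by 0.16 (SE 0.05) and Psmd6 by 0.14 (SE 0.04), with limma adjusted p-values of 0.0332, 0.0323 and 0.0381. Each of these calls was lost when 1 of several arrays was left out, and none remained in a fit of all 12 arrays, where the changes were -0.16, -0.15 and -0.14. The arrays added in that fit are of GD8.5 alone. Psmd8 and Psmd12 changed by -0.10 ± 0.05 and -0.09 ± 0.05 and did not pass.

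**Figure D4:**
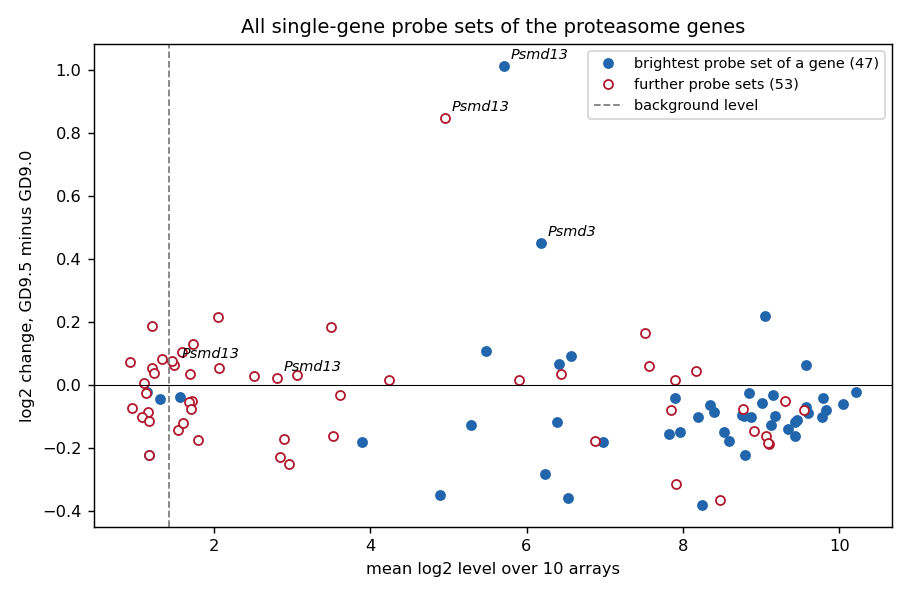
Log2 change between GD9.5 and GD9.0 against mean log2 level for the 47 brightest probe sets (filled) and the 53 further probe sets (open) of the proteasome genes, with the background level dashed. Psmd13 has 2 bright probe sets near 1.01 and 0.85 and 2 dim ones near 0, and most other points lie just below 0.

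Array controls moved with the genes that were lowest at GD9.0. The control probe sets for 18S ribosomal RNA averaged 9.82 at GD8.5, 8.81 at GD9.0 and then 10.3 at GD9.5, and the 3′ minus 5′ log2 difference of the actin control was 0.71, 0.56 and 0.93. The Gapdh control differed by 0.039, -0.00095 and 0.049. Psmd13 averaged 5.74, 5.19 and 6.20 at these stages and Psmd3 6.24, 5.94 and 6.39. Rad23b, which delivers ubiquitinated proteins to the proteasome, followed the same order at 6.93, 6.48 and 7.12. The part of RNA quality in these results was not tested.

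**Figure D5:**
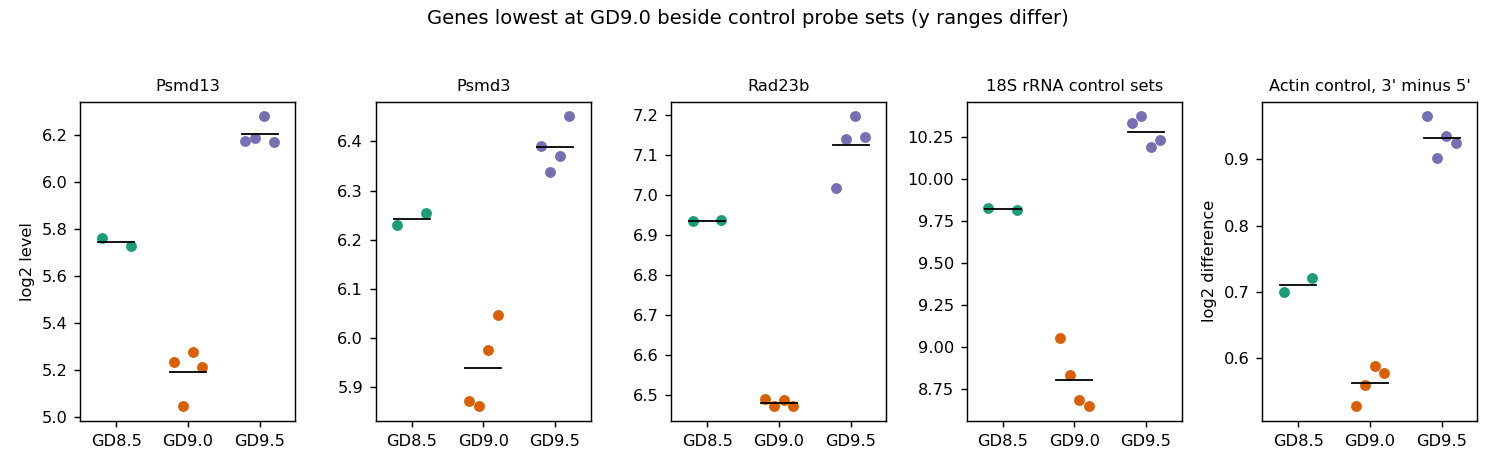
Log2 level of Psmd13, Psmd3, Rad23b and the 18S ribosomal RNA control sets, and the actin control's 3′ minus 5′ log2 difference, in each array (points) with stage means (lines); the y ranges differ between panels. All 5 measures are lowest at GD9.0 and highest at GD9.5.

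Among the assembly chaperones, 4 of 7 fell between GD9.5 and GD9.0 (10.3% of all genes did), with a median change of -0.18. Psmg1, which with Psmg2 guides assembly of the alpha ring, measured 8.49 and 8.50 at GD8.5, 8.34, 8.34, 8.42 and 8.40 at GD9.0 and 8.01, 7.87, 8.08 and 8.02 at GD9.5. The stages did not overlap, with GD8.5 highest and GD9.5 lowest. It fell by 0.38 between GD9.5 and GD9.0 (SE 0.05; limma adjusted p = 0.00041) and by 0.50 between GD9.5 and GD8.5 (SE 0.07; adjusted p = 0.00016). Psmg2 measured 8.03 and 8.01 at GD8.5, 8.02, 8.04, 7.92 and 8.10 at GD9.0 and 7.87, 7.76, 7.92 and 7.93 at GD9.5, and its change of -0.15 ± 0.06 against GD9.0 did not pass.

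Psmg3 and Psmg4 form the second pair that guides the alpha ring. Psmg3 measured 6.58 and 6.62 at GD8.5, 6.71, 6.72, 6.70 and 6.66 at GD9.0 and 6.31, 6.27, 6.42 and 6.34 at GD9.5. All GD9.5 arrays lay below every earlier one, and it fell by 0.36 against GD9.0 (SE 0.05; limma adjusted p = 0.00033). Psmg4, its partner, measured 6.25 and 6.23 at GD8.5, 6.47, 6.40, 6.43 and 6.38 at GD9.0 and 6.41, 6.51, 6.50 and 6.54 at GD9.5. It was lowest at GD8.5 and rose by 0.25 ± 0.06 over the whole interval (adjusted p = 0.00815), while Psmg3 fell by 0.26 (SE 0.06; adjusted p = 0.00693). Both whole-interval calls were lost without GD8.5 replicate 4 (adjusted p = 0.0679 for Psmg4 and 0.0685 for Psmg3) and with averaged probe sets, and the Psmg3 call also in a fit of all 12 arrays (-0.12). The difference between the partners was not tested.

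All 3 chaperones of the ATPase ring among the members had their highest mean at GD9.0. Psmd10, also known as gankyrin, measured 6.31 and 6.16 at GD8.5, 6.33, 6.33, 6.41 and 6.43 at GD9.0 and 6.07, 6.16, 6.06 and 6.09 at GD9.5. It fell by 0.28 between GD9.5 and GD9.0 (SE 0.05; limma adjusted p = 0.00265). Psmd5 measured 6.89 and 6.86 at GD8.5, 7.14, 7.01, 7.14 and 7.09 at GD9.0 and 6.97, 6.85, 6.95 and 6.89 at GD9.5. It was the 1 gene called higher at GD9.0 relative to GD8.5, by 0.22 ± 0.06 (adjusted p = 0.0455), and then fell by 0.18 (SE 0.05; adjusted p = 0.0265). The first of these calls was lost without any 1 of 8 of the 10 arrays, and the second without any 1 of 5. Psmd9 changed by -0.13 ± 0.06 between GD9.5 and GD9.0 and did not pass.

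No activator passed the test in any stage comparison by its brightest probe set. Psme1, a subunit of the interferon-inducible activator, measured 6.44 and 6.41 at GD8.5, 6.44, 6.35, 6.53 and 6.45 at GD9.0 and 6.25, 6.18, 6.45 and 6.41 at GD9.5. Psme3, which forms a nuclear activator, measured 5.51 and 5.43, then 5.50, 5.33, 5.37 and 5.55, and then 5.58, 5.58, 5.55 and 5.47 at these stages. The stages overlapped for both genes. Psme4, an activator linked to acetylated histones, measured 8.83 and 8.81 at GD8.5, 8.82, 8.85, 8.95 and 8.88 at GD9.0 and 8.84, 8.84, 8.87 and 8.85 at GD9.5. Of its 6 probe sets, the third changed by -0.18 ± 0.05 between GD9.5 and GD9.0 and passed in a fit of all probe sets (limma adjusted p = 0.0434). Psme2 is read only by a probe set that names a second gene and was not measured here.

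Psmf1, named as an inhibitor of the proteasome, measured 4.82 and 4.92 at GD8.5, 5.10, 4.93, 5.07 and 5.21 at GD9.0 and 4.63, 4.68, 4.64 and 4.97 at GD9.5. GD9.5 replicate 4 reached into the range of GD9.0. It fell by 0.35 between GD9.5 and GD9.0 (SE 0.09; limma adjusted p = 0.0123). Its 3 further probe sets changed by 0.02, -0.03 and 0.21, none of them called, and the mean of all 4 by -0.04.

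Over all members, probe sets of 1 gene were never called in opposite directions. The 47 genes had 100 single-gene probe sets, of which 85 lay above background, and 26 genes had more than 1. Of the 41 further probe sets above background, 22 were below 0 between GD9.5 and GD9.0, so the lean of the brightest probe sets was not seen over all of these. Among the 17 with a mean level above 5, the median change was -0.08 and 11 were below 0. Over all further probe sets above background, 4 were called lower in that comparison and 1, the second Psmd13 probe set, higher.

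Genes that work with the proteasome but fall outside the symbol rule are given for GD9.5 against GD9.0. Of 15 measured partners, 4 rose (26.7%, against 14.1% of all genes) and 2 fell (13.3%, against 10.3%). Rad23b rose by 0.65 ± 0.05 (limma adjusted p = 4.9e-06), Ubqln2, another shuttle for ubiquitinated proteins, by 0.29 ± 0.06 (adjusted p = 0.00294) and Akirin2, which brings proteasomes into the nucleus, by 0.23 ± 0.05 (adjusted p = 0.0046). The deubiquitinases docked on the regulatory particle fell, Uchl5 by 0.32 (SE 0.05; adjusted p = 0.00052) and Usp14 by 0.23 (SE 0.05; adjusted p = 0.00933). The Nfe2l1 pathway drives proteasome gene transcription when the complex is inhibited. Of its 11 measured genes, Ngly1 alone was called in that comparison (9.09%, against 24.3% of all genes). It rose by 0.34 ± 0.10 (limma adjusted p = 0.0275). For GD9.5 minus GD8.5, 1 was called higher and 2 lower (27.3% in all, against 28.6% of all genes). Nfe2l1 itself did not pass in any stage comparison.

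Other large protein complexes are set beside the proteasome for scale. Of the 8 subunits of the TRiC chaperonin, which folds actin and tubulin, 5 were lower at GD9.5, relative to GD9.0, and none higher, with a median change of -0.15. Of 10 subunits of the COP9 signalosome, whose architecture resembles the proteasome lid, 3 were lower and 1 higher, with a median of -0.04. Of 49 cytosolic ribosomal protein genes, 5 were lower and 1 higher, with a median of -0.04. Over all genes 10.3% were lower and 14.1% higher. The differences between these groups and the proteasome were not tested.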

How the data were processed

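Total RNA (100 ng per array) from neural tubes was labelled with biotin and hybridised to 12 arrays, per the labels' protocols. Per the submitters' processing notes, the tools were Affymetrix Expression Console 1.2.1, RMA and GCRMA, named with no role or order, so the method behind each column is unknown here. The deposited values were log2 levels in 10 arrays, with medians of 1.75 to 1.82 and no normalization stated, and linear intensity values in the 2 others (GD8.5 replicates 1 and 2), as the deposited values themselves show. The log2 arrays were used, and all 12 arrays after log2 and quantile normalization were an alternative.

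Of 45101 probe sets, 64 controls were left out, and 34945 named 1 gene. A mean per stage was fitted to 18193 genes with limma 3.58.1 in R 4.3.3 (7 residual degrees of freedom), with Benjamini-Hochberg adjustment over all genes and a threshold of 0.05. Alternatives changed the scaling, the probe sets, the filter, the variance model, a replicate block and each array left out. The script was tested on simulated data. Errors in the text are standard errors unless named SD. The number of arrays limits the precision.

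Members and gene lists were chosen with earlier results of these data known. Genes named with values in every array were up to 6 called rises and falls per stage comparison, up to 4 per direction in the interval difference, and the catalytic, inducible, tissue-restricted, activator, inhibitor and Psmg genes; of each further list up to 3 changes per comparison were named. Genes of the interferon and antigen presentation, ubiquitin and E1, endothelial, and decidua and trophoblast lists are given under the other observations.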

Additional observations from a re-analysis of the deposited data

Results flagged for a closer look

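For 5 of 88 checks of a gene in the 4 arrays of a stage, 1 array lay far from the others, and chance alone gives such a gap in about 1 check in 20. All 5 were at GD9.5. Psma2 was at 9.83 in replicate 1, against 9.75 to 9.76 in the other arrays. Psma3 was at 10.14 in replicate 2, against 10.22 to 10.23. Psmd11 was at 9.10 in replicate 1, against 9.19 to 9.21. Psmd13 was at 6.28 in replicate 3, against 6.17 to 6.19. Psmf1 was at 4.97 in replicate 4, against 4.63 to 4.68. The 5 gaps fell in 4 different arrays.

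For 8 genes the change between GD9.5 and GD9.0 differed from the change between GD9.0 and GD8.5, by a limma test of that difference. The difference was 1.57 ± 0.11 for Psmd13 and 0.75 ± 0.10 for Psmd3, both lowest at GD9.0. It was -0.56 ± 0.16 for Psmf1, -0.46 ± 0.09 for Psmg3, -0.42 ± 0.10 for Psmd10, -0.40 ± 0.10 for Psmd5, -0.35 ± 0.09 for Psmd4 and -0.35 ± 0.08 for Psmd2, all highest at GD9.0 by their brightest probe sets. Further Psmf1 probe sets, at mean levels of 4.24 and 2.05, were highest at GD9.5. Of these negative differences, only that of Psmg3 kept its call whichever GD9.0 array was left out. The intervals share the GD9.0 arrays, so a shift of those arrays moves both in opposite directions.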

How the results depend on the processing

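Beside the 3, 14, 6 and 8 proteasome genes called for the first interval (GD9.0 minus GD8.5), the second interval (GD9.5 minus GD9.0), the whole span (GD9.5 minus GD8.5) and the difference between intervals, counts moved by over 1.5 times as follows, and the cause was not tested. Median centring gave 5 (3 higher, 2 lower), 30 (3 and 27) and 14 (2 and 12) for the first, second and last; over all genes it gave 1546 higher and 1025 lower, 1906 and 3177, and 908 and 1655, against 1233 and 1227, 2561 and 1868, and 1268 and 850. A fit of 12 arrays gave 7 (3 and 4) for GD9.5 minus GD9.0 and 3 (2 and 1) for the difference; over all genes it called 2295, against 4429, and 1089, against 2118. An intensity trend with robust variance gave 7 (5 higher, 2 lower), 27 (3 and 24), 15 (4 and 11) and 17 (3 and 14); over all genes it called 3256, 5149, 5852 and 3155, so the members’ 31.9% for the whole span stood beside 32.2% of all genes. Genes above background alone gave 5 for the first comparison. Averaging each gene's probe sets gave 5 for the difference. Without probe sets shared between transcripts there were 1 and 5 for the first and last, over 41 members, and Psmd13 reversed to -0.12 for GD9.5 minus GD8.5 (limma adjusted p = 0.695). Psmd13 was there read by a dim probe set, at a mean level of 2.80.

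The replicate block gave 1 and 5 for the same comparisons. Arrays with the same replicate number deviated with correlations of -0.059 to 0.12, 1 of 8 over 0.1, so the numbers were not taken to pair samples.

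Leaving out each array in turn gave 1 to 3, 9 to 12, 3 to 7 and 3 to 8 calls. Without GD8.5 replicate 3 there was 1 call for GD9.0 minus GD8.5 and 4 for the difference; without GD8.5 replicate 4 there were 1, 3 for GD9.5 minus GD8.5 and 3 for the difference. Without GD9.0 replicates 1, 3 or 4 the difference had 4, 4 or 5, and without GD9.0 replicate 3 or GD9.5 replicate 4 GD9.5 minus GD9.0 had 9. Over all genes, GD9.0 minus GD8.5 had 1387 to 2391 calls. Psmb9 minus Psmb6 ran between -0.055 and 0.080 and Psmb10 minus Psmb7 between -0.32 and -0.25.

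Psmg1 (against both earlier stages), Psmg3, Psmd10 and Psmd3 (each GD9.5 minus GD9.0) kept their call in every alternative and every leave-out that was run. The only Psmd10 probe set is of a kind that can bind several transcripts, so the alternative without such probe sets was not run for it.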

Other observations

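Of 13 measured genes for interferon response and antigen presentation, H2-K1 was higher at GD9.5, relative to GD9.0, by 0.43 ± 0.05 (limma adjusted p = 9.3e-05), and the interferon gamma receptor genes Ifngr1 and Ifngr2 by 0.53 ± 0.10 and 0.52 ± 0.17. Tap2, which carries peptides made by the proteasome, fell by 0.31 (SE 0.07; adjusted p = 0.00612). The inducible Psmb8 stayed below background at every stage beside these values. Jak2 rose by 0.43 ± 0.08 between GD9.0 and GD8.5 (adjusted p = 0.00396).

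The 1 measured gene of the ubiquitin and E1 list, Uba6, which activates ubiquitin, fell by 0.23 between GD9.5 and GD9.0 (SE 0.04; limma adjusted p = 0.00284). The 8 endothelial markers summed to 27.6 to 27.9 at GD8.5, 26.5 to 27.4 at GD9.0 and then 25.7 to 26.3 at GD9.5. The 3 measured decidua and trophoblast markers summed to 11.8 to 12.4, 6.52 to 7.20 and 7.78 to 8.32 at these stages. Among them, Prl8a2 changed by -4.95 between GD9.0 and GD8.5 and by 1.12 between GD9.5 and GD9.0. Ascl2 and Tpbpa were at or below background at GD9.0 and GD9.5.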
